A study of Mus musculus with 8 samples.

Results

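Lipid-associated macrophage genes are a set of 10 of the 32285 genes counted in each library: Trem2, Apoe, Gpnmb, Spp1, Lpl, Fabp5, Cd36, Plin2, Lgals3 and Abca1. They were chosen by name, as genes reported for lipid-laden macrophages, with earlier results of these data known. Droplet-based single-cell RNA sequencing counted 3′ transcript tags as unique molecular identifiers (UMIs) in CD45+CD11b+Ly6Chi cells sorted from MC38 tumors, a mouse colon carcinoma line grown in C57BL/6J mice, and from the blood of tumor-bearing mice. The mice were Ythdf2 fl/fl (WT) or Lyz-Cre+ Ythdf2 fl/fl (cKO, in which Cre driven by the lysozyme gene removes the m6A reader Ythdf2 in myeloid cells), 8 to 10 weeks old and of both sexes, and their tumors received 20 Gy of local ionizing radiation (IR) or none (control). Cells were collected 3 days later. Cells of 5 mice were pooled for each genotype, tissue and treatment, and the 2 genotypes of a tissue and treatment were marked with hashtag antibodies and run as 1 library, which gave 4 libraries and 8 groups with 1 pooled sample each. No test between groups is therefore possible. Intervals below are exact 95% intervals for counting error only and do not cover differences between mice.

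Macrophages that take up lipoproteins, dead cells or other lipid store the lipid in droplets, break it down in lysosomes and export cholesterol, and the genes of the set act along that path. TREM2 is a lipid-sensing receptor, CD36 takes up fatty acids and oxidized lipoproteins, LPL releases fatty acids from lipoproteins, FABP5 carries them in the cytosol and PLIN2 coats lipid droplets. ABCA1 passes cholesterol to apolipoproteins such as APOE, and GPNMB, the secreted protein osteopontin (Spp1) and galectin-3 (Lgals3) are made by many tissue macrophages under lipid load or injury.

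In tumor, IR went with 2 opposite movements inside the set. Apoe was at most 0.395 of its control level in cells of either label, while Plin2, Cd36 and Abca1 were higher, past 2-fold in cells labelled cKO and short of 2-fold in cells labelled WT. Of these 3, only Plin2 in cells labelled cKO stayed past 2-fold without fibroblast-like cells, where Cd36 and Abca1 came to log2 ratios of 0.68 and 0.65. Apoe was lower after IR inside 4 of the 5 tumor cell clusters in which it could be followed, but differed little inside the cluster with the highest Apoe level, and it was also lower in blood monocyte-like cells.

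The promoters of members that moved in opposite directions are shown so that their sequences can be read beside the values. RefSeq held promoter sequence, from 250 bases before to 50 bases after a start site on GRCm38.p6, for 8 of the 10 members and in 11 promoters. Lpl and Fabp5 had no entry. Plin2 (chr4:86670010-86670309, minus strand), Abca1 (chr4:53159846-53160145, minus strand) and Cd36 (chr5:17835847-17836146, minus strand) are given for the genes that were higher after IR, and Trem2 (chr17:48346151-48346450, plus strand) and the first of 3 Apoe promoters (chr7:19699139-19699438, minus strand) for those that were lower. Capitals mark the letters of the 5 motifs searched on both strands: CACGTG and TCANGTGA (both E-boxes, which can overlap each other), AGGTCA (a nuclear receptor half-site), TGANTCA (AP-1) and GAGGAAGT (PU.1).
Plin2: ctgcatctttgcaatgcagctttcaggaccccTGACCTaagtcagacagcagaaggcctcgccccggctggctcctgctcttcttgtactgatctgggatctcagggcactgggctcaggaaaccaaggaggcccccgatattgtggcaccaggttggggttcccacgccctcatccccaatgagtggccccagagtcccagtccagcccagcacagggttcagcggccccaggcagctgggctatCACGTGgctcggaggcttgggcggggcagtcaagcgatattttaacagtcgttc
Abca1: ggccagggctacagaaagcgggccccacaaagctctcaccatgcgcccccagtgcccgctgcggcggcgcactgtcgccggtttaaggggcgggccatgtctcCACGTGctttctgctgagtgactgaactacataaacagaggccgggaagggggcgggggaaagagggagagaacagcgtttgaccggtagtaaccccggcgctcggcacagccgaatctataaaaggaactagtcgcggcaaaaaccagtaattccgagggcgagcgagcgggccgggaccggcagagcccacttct
Cd36: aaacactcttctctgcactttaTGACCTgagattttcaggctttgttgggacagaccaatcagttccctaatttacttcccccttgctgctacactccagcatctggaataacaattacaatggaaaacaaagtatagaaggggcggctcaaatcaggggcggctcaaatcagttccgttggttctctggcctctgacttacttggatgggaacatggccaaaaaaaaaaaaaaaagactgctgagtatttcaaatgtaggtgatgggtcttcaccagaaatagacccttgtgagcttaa
Trem2: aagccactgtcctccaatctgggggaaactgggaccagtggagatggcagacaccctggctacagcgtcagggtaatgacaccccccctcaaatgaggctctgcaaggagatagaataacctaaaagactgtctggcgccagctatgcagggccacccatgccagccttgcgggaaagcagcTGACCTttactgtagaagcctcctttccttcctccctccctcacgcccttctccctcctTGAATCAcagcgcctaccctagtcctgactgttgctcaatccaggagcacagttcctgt
Apoe: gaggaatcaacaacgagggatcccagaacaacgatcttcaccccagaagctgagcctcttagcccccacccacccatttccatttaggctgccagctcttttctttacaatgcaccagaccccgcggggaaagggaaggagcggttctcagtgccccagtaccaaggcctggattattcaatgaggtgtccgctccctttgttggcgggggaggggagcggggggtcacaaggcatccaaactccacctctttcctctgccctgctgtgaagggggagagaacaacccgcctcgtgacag
CACGTG was found in Abca1, starting 147 bases before the start site, and in Plin2, starting 4 bases before it, against 7.15% of 32851 mouse promoters of the same length. AGGTCA was found in Plin2, Cd36 and Trem2, against 16.3% of promoters. TGANTCA, held by 7.81% of promoters, was found in Trem2 and Gpnmb. TCANGTGA was found in Lgals3 (4.18% of promoters) and GAGGAAGT in Spp1 (3.2%). None of these letters were in the 3 Apoe windows. Neither CACGTG nor AGGTCA therefore set apart all the members that were higher after IR, as Trem2 also held AGGTCA and Cd36 did not hold CACGTG.

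All 10 members are protein-coding genes. On mm10 they lie on 8 chromosomes: Apoe at chr7:19696109-19699188 (minus strand), Trem2 at chr17:48346401-48354147 (plus), Spp1 at chr5:104435118-104441050 (plus), Cd36 at chr5:17781690-17888801 (minus), Plin2 at chr4:86648386-86670060 (minus), Abca1 at chr4:53030787-53159895 (minus), Gpnmb at chr6:49036546-49070929 (plus), Lpl at chr8:68880491-68907448 (plus), Fabp5 at chr3:10012548-10016607 (plus) and Lgals3 at chr14:47367751-47386160 (plus).

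The libraries held 51653956 to 87703837 gene UMIs, and 27546 cells were kept and given a label, with a median of 2965 to 7291 UMIs a cell by library. In tumor 2504 cells were labelled WT and 2135 cKO without IR, and 3095 WT and 3753 cKO after IR. The labels meet 2 conflicts, the Ythdf2 level and the barcodes shared by the 2 tumor matrices. Ythdf2 itself was higher in cells labelled cKO, at 369.5 CPM against 54.9 CPM in control tumor, although 3′ tags outside the deleted part check nothing, while Lyz2, at 89.9 against 6866 CPM, was low there. Lyz1 and Lyz2 are near copies whose tags cannot be told apart with certainty. In the tumor control matrix 7325 of 7327 barcodes without a hashtag carried one in the tumor IR matrix, and 4955 of 4958 the other way, so 20 hashtag UMIs were required of every cell and 30 barcodes were kept in both. The sort was for myeloid cells, yet 116 fibroblast-like and 119 natural killer (NK) cell-like cells were kept in control tumor cells labelled WT.

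Levels are UMI counts of a gene scaled to the same total of gene UMIs in every group (CPM), so that groups of different depth can be compared. The log2 ratios add 1 depth-scaled UMI to each group. A gene was called past the limit when its ratio reached 2-fold among genes with at least 100 UMIs in the 2 groups together. In sums over a whole group, fewer cells of a type and less RNA per cell cannot be told apart, and the values within clusters further on separate them in part.

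**Figure D1:**
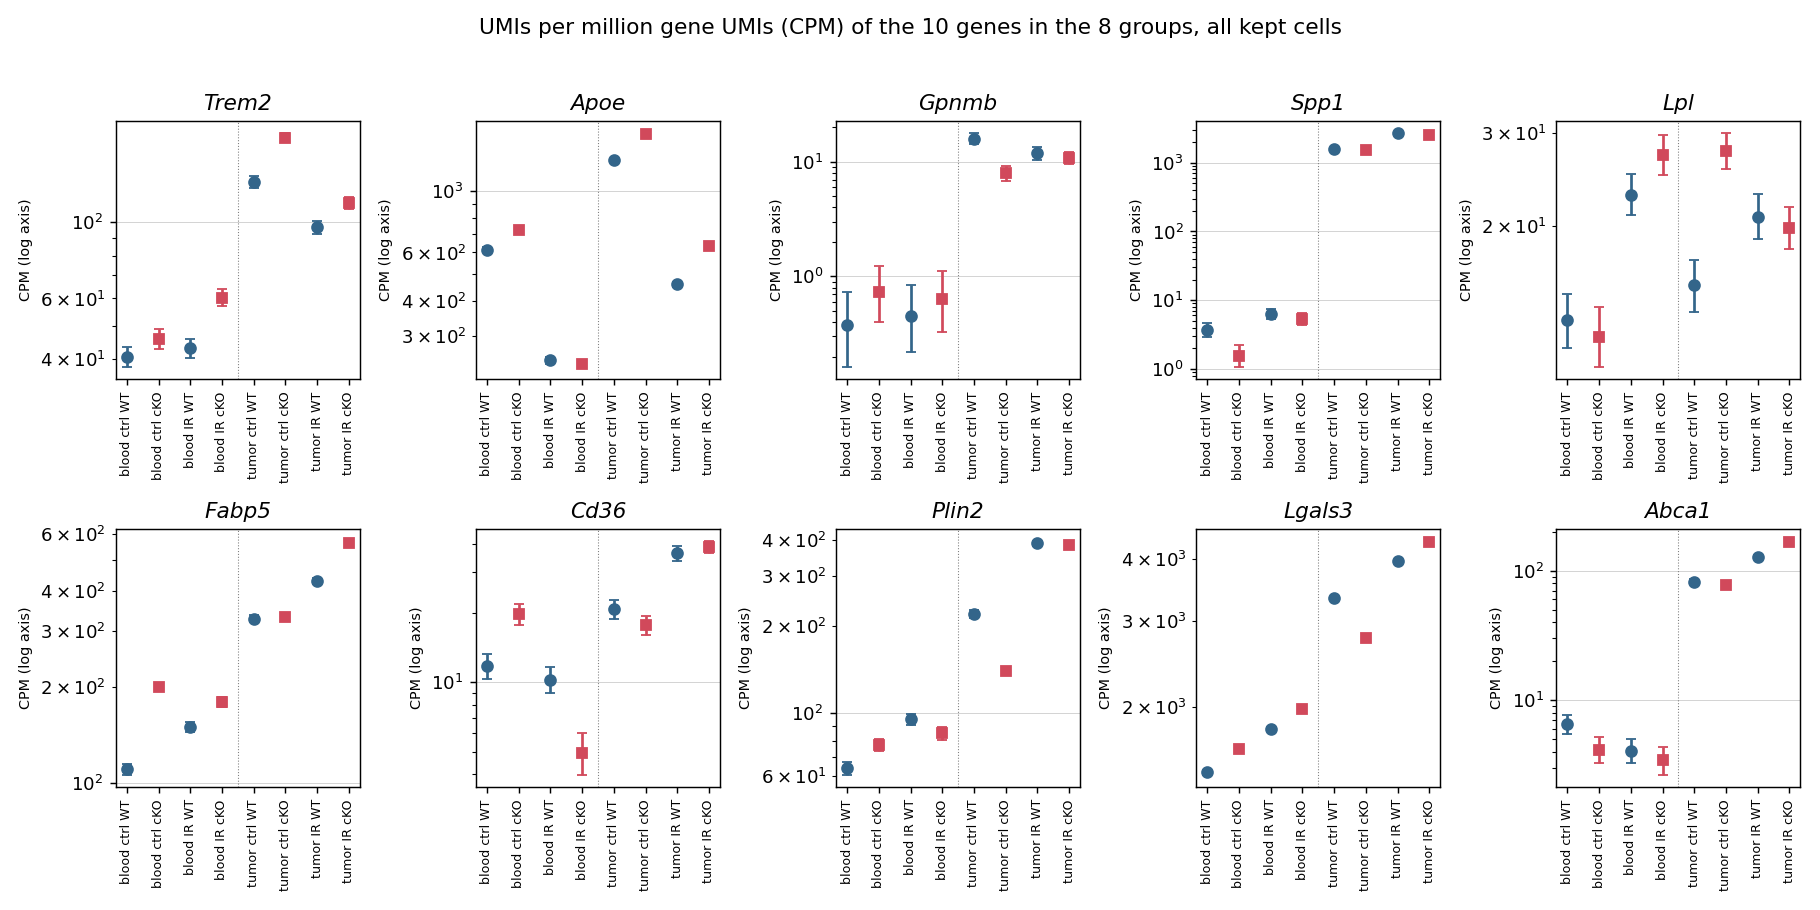
Level of each of the 10 genes (CPM, log axis) in the 8 groups, with blue circles for cells labelled WT, red squares for cells labelled cKO and bars for the 95% counting interval. Apoe is lower after IR in tumor and in blood with either label, Plin2 and Abca1 are higher after IR in tumor, and Spp1, Gpnmb and Abca1 are far higher in tumor than in blood.

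The first question is whether the set is higher in the sorted tumor cells than in the sorted blood cells. Cells named neutrophil-like were 67.0% to 71.5% of the cells in the blood groups and at most 0.162% in the tumor groups. The sums below therefore compare unlike mixes of cells. The tumor share covers named cells only, and markers had to be raised against all other kept cells, blood neutrophil-like cells included. Cluster 12, left unnamed with 1 raised neutrophil marker, was 10.4% of IR tumor cells labelled WT and 6.39% of those labelled cKO. Of the 10 members, 8 were higher in tumor than in blood in control cells labelled WT and 0 lower, against 19.9% of all genes higher and 15.5% lower. In control cells labelled cKO 6 were higher and 0 lower (27.5% and 16.5% of all genes). After IR 8 were higher and 0 lower with either label (15.9% and 16.4% of all genes for WT, 16% and 16.3% for cKO). Taken as means of per-cell CPM, the numbers higher were 10 and 9 of 10 in control cells labelled WT and cKO and 9 after IR with either label, and with TMM factors the control numbers were 7 and 4. The shares of all genes were not computed under these 2 settings, so these numbers have no background to be read against. The 2 tissues were never in 1 library, so tissue and library cannot be told apart.

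Spp1, osteopontin, showed the widest gap between tissues. It was at 1556 and 1535 CPM in control tumor cells labelled WT and cKO and at 2674 and 2564 CPM after IR, while all 4 blood groups lay between 1.57 and 6.35 CPM. The log2 ratio of tumor to blood was 8.70 (8.40 to 9.06) in control cells labelled WT, 9.89 (9.42 to 10.50) in control cells labelled cKO, and 8.71 and 8.91 after IR.

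Abca1, the cholesterol exporter, followed the same order. It was at 82.4 and 77.8 CPM in control tumor and at 127 and 166 CPM in IR tumor, against 3.44 to 6.50 CPM in blood, and its log2 ratio of tumor to blood ran from 3.66 in control cells labelled WT to 5.57 in IR cells labelled cKO. Gpnmb, a membrane glycoprotein of endosomes and lysosomes, was low in every group. It was at 7.93 to 16 CPM in tumor and 0.374 to 0.733 CPM in blood, with log2 ratios of 3.35 to 5.24.

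Trem2, the lipid-sensing receptor, was at 40.5 to 60.4 CPM in blood and 96.7 to 177 CPM in tumor. Its tumor to blood ratio was past the limit in 3 of the 4 pairs and was 0.92 (0.82 to 1.02) on the log2 scale in IR cells labelled cKO. The lipase gene Lpl and the fatty acid transporter gene Cd36 did not separate the tissues in the same way. Lpl was at 15.5 to 27.7 CPM in tumor and 12.4 to 27.3 CPM in blood, so the tissues overlapped, and in these sums control cells labelled cKO alone passed the limit (1.16). Cd36 passed it after IR, at 1.82 and 2.96, and in control had 0.81 (0.59 to 1.05) in cells labelled WT and −0.16 (−0.36 to 0.05) in cells labelled cKO. As means of per-cell CPM the control ratios of Cd36 were 2.31 and 1.38, both past the limit, and that of Lpl in control cells labelled WT was 1.34, so the control values of both genes depend on how cells are weighted.

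The comparison of irradiated with control tumor asks what the set does 3 days after IR. In cells labelled WT 0 members were higher past the limit and 1, Apoe, was lower, against 2.61% of all genes higher and 3.3% lower. In cells labelled cKO 3 were higher (Plin2, Cd36 and Abca1) and 1, Apoe again, was lower, against 5.14% and 16.8% of all genes. The median log2 ratio of the 10 members was 0.41 in WT and 0.70 in cKO, beside −0.13 and −0.18 over all genes counted. The 2 labels came from the same 2 libraries, 1 for each treatment. Treatment and library therefore cannot be told apart, and the second label does not repeat the comparison.

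Apoe fell by 1.49 on the log2 scale (interval −1.52 to −1.45) in cells labelled WT, from 1289 to 460.1 CPM. In cells labelled cKO it went from 1599.9 to 632 CPM, a fall by 1.34 (−1.37 to −1.31). Both IR groups, which shared a library, lay below both control groups, which shared another. Trem2, whose receptor binds APOE, went from 131 to 96.7 CPM in cells labelled WT (−0.44, −0.52 to −0.35) and from 177 to 114 CPM in cells labelled cKO (−0.63, −0.70 to −0.56), lower with either label but short of 2-fold.

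Plin2, the droplet coat, went from 221 to 389.8 CPM in cells labelled WT, a log2 ratio of 0.82 (0.77 to 0.87), and rose from 139.6 to 384 CPM in cells labelled cKO, 1.46 (1.40 to 1.52). The 2 IR groups lay close together, and the control cells labelled cKO were the lowest of the 4 groups. Abca1 went from 82.4 to 127 CPM in cells labelled WT (0.62, 0.53 to 0.71) and rose from 77.8 to 166 CPM in cells labelled cKO (1.09, 1.01 to 1.17). Cd36 went from 20.7 to 36.3 CPM (0.81, 0.63 to 0.98) and rose from 17.7 to 38.7 CPM (1.13, 0.96 to 1.30). Each of these 3 genes had both IR groups above both control groups, with the groups of a treatment from the same library.

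The barcodes shared between the 2 tumor matrices were examined beside these values. Without barcodes tagged in both matrices the log2 ratio of Apoe was −1.5 in WT and −1.36 in cKO, and Plin2, Cd36 and Abca1 in cells labelled cKO had 1.46, 1.17 and 1.11. When the control and IR cells were both read from the tumor control matrix Apoe had −1.53 and −1.33, and from the tumor IR matrix −1.48 and −1.42. The counts past the limit were 1 in WT and 4 in cKO in each of these readings, for which the shares of all genes were not computed.

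Spp1 was 1.72-fold its control level in cells labelled WT and 1.67-fold in cells labelled cKO, and Lgals3, galectin-3, went from 3331 to 3966 CPM (0.25) and from 2761 to 4341 CPM (0.65). Fabp5, the fatty acid carrier, went from 326 to 428 CPM (0.39) and from 331 to 564 CPM (0.77). None of these passed the limit, and all 3 were on the higher side of control with either label. Lpl and Gpnmb had opposite signs with the 2 labels, though the Lpl ratio in WT was −0.09 when a 4-fold hashtag margin was asked of both labels. Lpl had a log2 ratio of 0.43 (0.21 to 0.65) in WT and −0.48 (−0.65 to −0.31) in cKO, and Gpnmb had −0.43 (−0.68 to −0.18) and 0.44 (0.17 to 0.72).

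**Figure D2:**
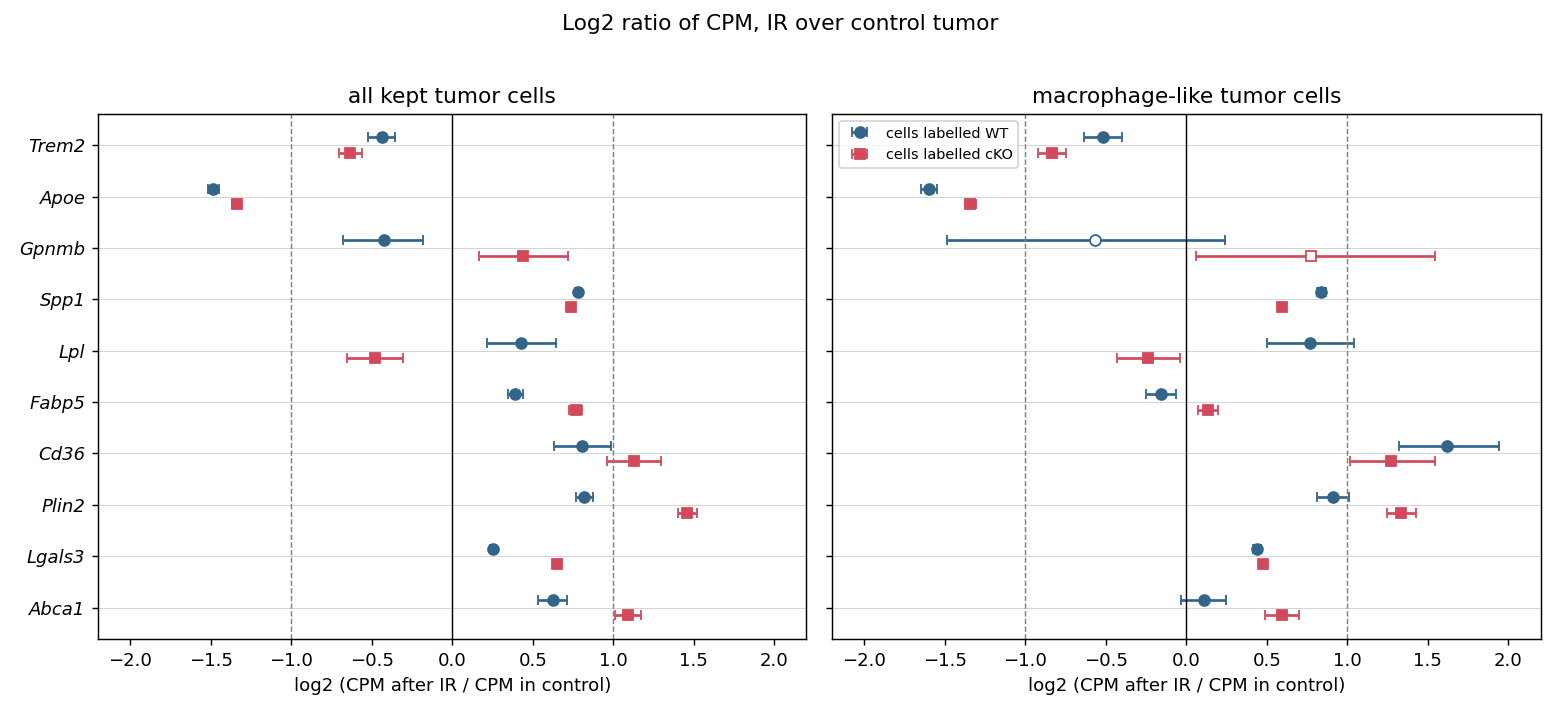
Log2 ratio of IR to control for each gene, with blue circles for cells labelled WT, red squares for cells labelled cKO, bars for the 95% counting interval, dashed lines at the 2-fold limit and open symbols where the 2 groups held under 100 UMIs. The left side uses all kept tumor cells and the right side macrophage-like cells. Apoe lies beyond the lower line on both sides, and Cd36 beyond the upper line with either label on the right side.

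Other cell types changed in share between the same groups. The 9 neutrophil markers summed to 211 CPM in control and 1711 CPM in IR cells labelled WT, and to 246 and 1103 CPM in cells labelled cKO. The 6 fibroblast markers summed to 459 and 248 CPM in WT and to 701 and 124 CPM in cKO, and fibroblast-like cells held 30.8% of all gene UMIs of control cells labelled cKO against 5.67% after IR. The 10 macrophage markers summed to 5068 and 5515 CPM in WT and to 7244 and 7623 CPM in cKO. Without fibroblast-like cells, a setting chosen after seeing the data, Cd36 and Abca1 in cells labelled cKO came to 0.68 and 0.65, under the limit (0.68 and 0.80 as means of per-cell CPM), and Apoe came to −1.79. Trem2 came to −1.08 and Gpnmb to 1.09 there, both past it. The part of the neutrophil-marked cells in these results was not tested.

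The genotype labels were then compared within each treatment. In control tumor cells labelled cKO had 0 members above and 1, Gpnmb, below the level of cells labelled WT past the limit, against 3.41% and 1.27% of all genes. Gpnmb had 16 CPM in WT and 7.93 CPM in cKO, a log2 ratio of −1.0 (−1.28 to −0.74), which lies at the limit. Under other settings the Gpnmb ratio ran from −1.54 without fibroblast-like cells to −0.86 as a mean over cells. The fibroblast-like cells held 32.2% of the Gpnmb UMIs of control cells labelled WT and 61.2% of those labelled cKO.

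The other members differed between labels by less than 2-fold in control tumor. Lpl had a log2 ratio of cKO to WT of 0.84 (0.64 to 1.04), Trem2 0.43 (0.36 to 0.50), Apoe 0.31 (0.29 to 0.33) and Plin2 −0.66 (−0.73 to −0.60). These members of the path thus had no common sign. When a 4-fold margin between the hashtags was asked of both labels, the Trem2 and Apoe ratios were −0.08 and −0.10, so neither sign was stable. The Lpl ratio kept its sign under that margin but was 0.22.

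In IR tumor 0 members were higher and 0 lower past the limit between the labels, against 0.19% and 0.858% of all genes. Apoe had the largest ratio, 0.46 (0.42 to 0.50), followed by Fabp5 at 0.40 and Abca1 at 0.38 (0.31 to 0.45). Plin2 (−0.02, −0.06 to 0.02), Lpl (−0.07, −0.26 to 0.12), Gpnmb (−0.14, −0.40 to 0.12) and Cd36 (0.09, −0.05 to 0.23) had intervals that include no difference, which does not show that the labels are alike.

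Cells were grouped into 24 clusters without the member genes, and 12 clusters had at least 50 tumor cells in a group. Trem2, Apoe and Abca1 were highest in cluster 11, macrophage-like cells led by Folr2, Pf4, Fcrls and Mrc1, genes of tissue-resident macrophages. There Apoe was at 5956 to 6804 CPM over the 4 tumor groups, Trem2 at 380.4 to 462 CPM and Abca1 at 242 to 626 CPM. In the larger macrophage-like cluster 3, led by class II antigen presentation genes and Cxcl9, Trem2 was at 145 to 252 CPM and Abca1 at 64.2 to 120.2 CPM. In the dendritic cell-like cluster 15 Trem2 was at 7.25 to 14.9 CPM, and in NK cell-like cells it was not detected.

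Lgals3, Gpnmb and Spp1 were highest in another cluster. Cluster 6, which could not be named and was led by Mmp12, Inhba, Cxcl3 and the hypoxia-induced genes Hilpda and Egln3, had Lgals3 at 6634 to 8147 CPM and Gpnmb at 27.5 to 68.3 CPM. Cd36 was at 61.7 to 74.2 CPM in cluster 6 and at 29.5 to 85.4 CPM in cluster 5. Spp1 was in cluster 6 at 3759 to 6048 CPM, while in cluster 5, also unnamed and with Cxcl10 and Socs1 among its leading genes, it was at 85.4 to 223 CPM. Plin2 was at 483 to 688 CPM in cluster 6 and at 742 and 723 CPM in the IR cells of cluster 12, an unnamed cluster led by Ccl3 and G0s2 with 1 raised neutrophil marker.

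Lpl and Fabp5 had further high clusters. Lpl was at 27.1 to 55.3 CPM in cluster 3 and at 64.4 CPM in the cycling macrophage-like cluster 17 of control cells labelled cKO, against 2.86 to 33.8 CPM in cluster 11. Fabp5 was highest in cluster 11 in 3 of the 4 tumor groups, at 862 and 642 CPM in control cells labelled WT and cKO and 950.2 CPM in IR cells labelled WT, and cluster 11 held 21.5% and 28.8% of the Fabp5 UMIs of the control groups. In the fourth group, where enough cells of cluster 19 were present, Fabp5 was at 5171 CPM in cluster 19 of IR cells labelled cKO, dendritic cell-like cells with Ccr7, Fscn1 and Ccl22, where Trem2, Abca1 and Lpl had no UMI. That cluster held 16% of the Fabp5 UMIs and 1.92% of the cells of its group. In fibroblast-like cells Apoe, Trem2 and Abca1 were at most 17.8, 3.23 and 2.35 CPM, while Gpnmb was at 15.7 to 31.3 CPM and Spp1 at 535 to 769 CPM.

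**Figure D3:**
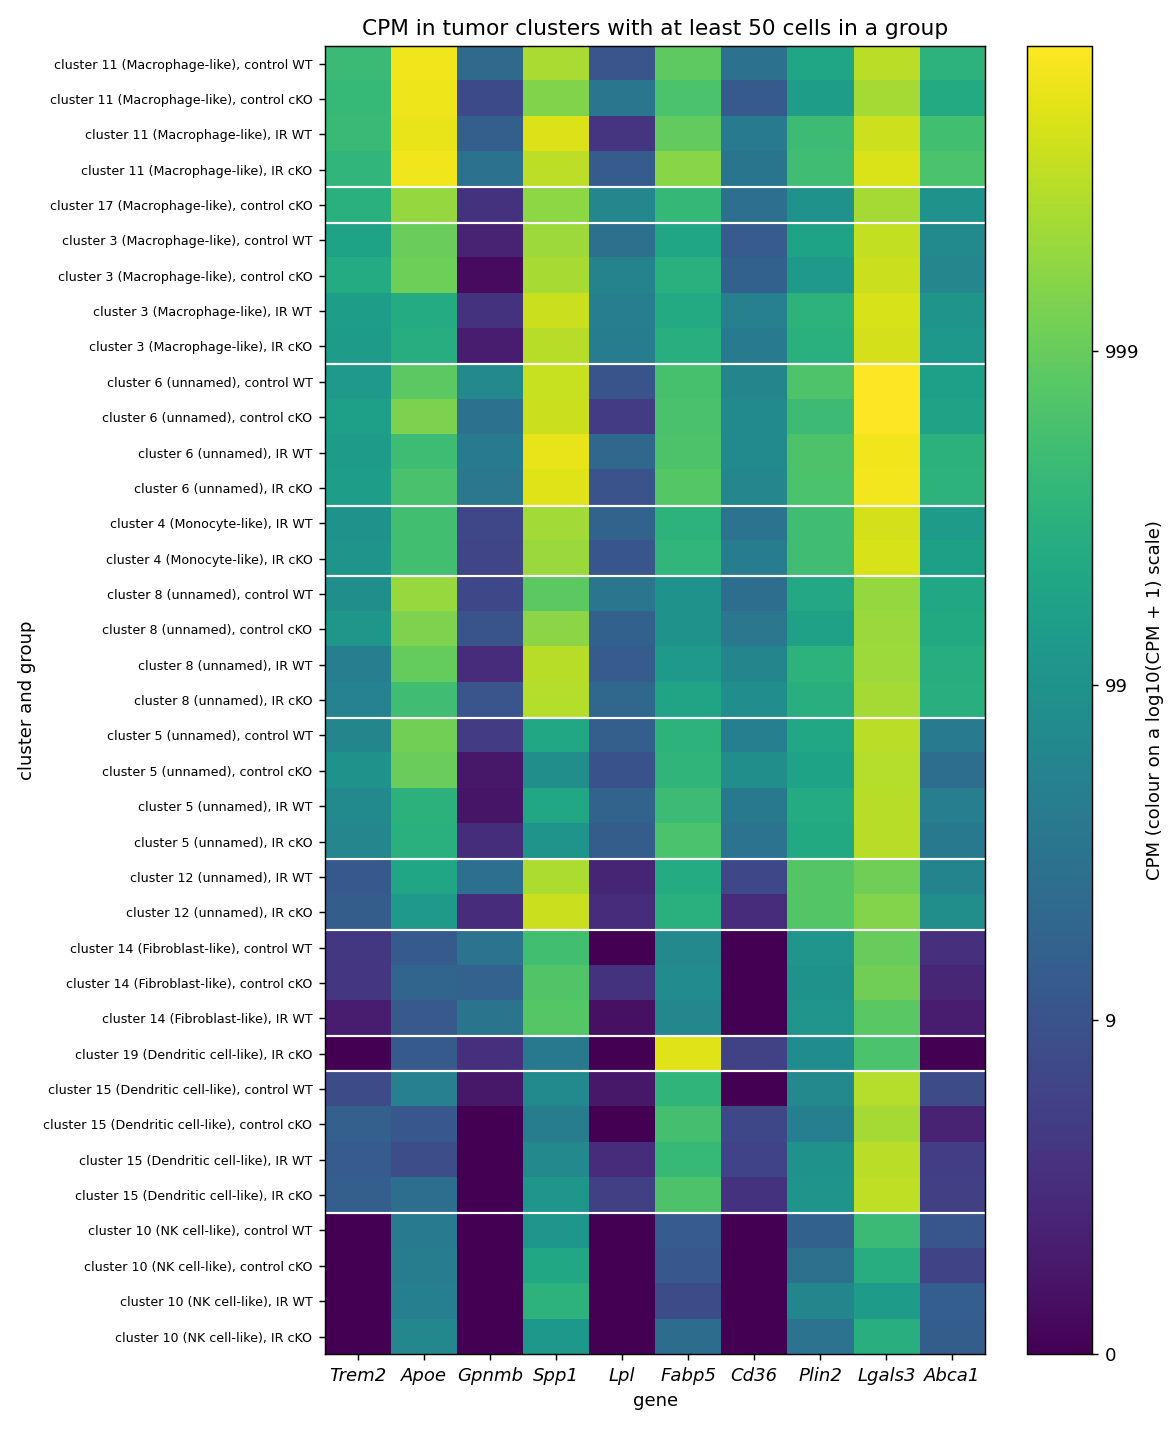
Level of each gene as log10(CPM + 1) in the 37 cluster and tumor group combinations with at least 50 cells, one row each. Apoe is brightest in the 4 rows of cluster 11, Fabp5 in the row of cluster 19, and the NK cell-like rows (cluster 10) are 0 for Trem2, Gpnmb, Lpl and Cd36.

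Across these 37 combinations all 45 pairs of members had a positive Pearson correlation of log2(CPM + 1), 33 of them over 0.5, with a median of 0.63. The highest were Apoe with Abca1 at 0.90 and Trem2 with Apoe at 0.85. The lowest were Spp1 with Fabp5 and Gpnmb with Lpl, both at 0.15. The points share libraries, depth and clusters, so these are descriptions. The 6925 genes with at least 1000 UMIs in the kept tumor cells were ranked by likeness to the mean of the members. The members themselves, the related lists, the cell type markers, Ythdf2, Lyz1 and Lyz2 were then passed over, however alike. The first 10 of the remaining genes were C3ar1, Hmox1, Atp6v1c1, Slc7a8, Tfec, Thbd, Mitf, C5ar1, Mfsd1 and Tlr7. Their correlations were 0.95 to 0.91 over the same combinations.

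UMIs of some members were also found in cells not known for them, and in barcodes without a cell. In NK cell-like cells of tumor Spp1 was at 111 to 331 CPM, Lgals3 at 142 to 467 CPM and Apoe at 37.8 to 63.1 CPM, and in barcodes below the cell limit of the tumor libraries Apoe was at 1902 CPM in control and 1123 CPM after IR. With cells thinned to 1000 UMIs, 46.8% of macrophage-like cells labelled WT had an Apoe UMI in control and 18.7% after IR, and 55.1% and 23.0% of those labelled cKO, against 1.79% to 4.20% of tumor NK cell-like cells. Without thinning the shares were 70.6% and 40.7% in WT and 78.5% and 41.2% in cKO. The median depth was 7719 to 10254 UMIs in these macrophage-like cells and 2295 to 2672 UMIs in the NK cell-like cells. Spp1 was found at 1000 UMIs in 44.1% and 56.0% of macrophage-like cells labelled WT and in 50.9% and 54.3% of those labelled cKO, against 3.70% to 10.7% of NK cell-like cells, and Trem2 in 11.7% to 25.4% of macrophage-like cells and in 0 of 119 NK cell-like cells of control tumor labelled WT, which allows a share of up to 3.05%.

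Restricting the comparison to macrophage-like cells, clusters 3, 11 and 17 together, separates part of the change in cell types. The class held 983 control and 592 IR cells labelled WT, and 1110 and 961 labelled cKO. In cells labelled WT 1 member, Cd36, was higher and 1, Apoe, lower after IR, against 1.3% and 1.5% of all genes counted in the class. In cells labelled cKO 2 were higher, Plin2 and Cd36, and 1, Apoe, lower, against 3.09% and 4.8%. Gpnmb had under 100 UMIs in the class and was left out of these counts.

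Apoe in macrophage-like cells fell by 1.60 on the log2 scale (−1.65 to −1.55) in cells labelled WT, from 2211 to 731 CPM, and by 1.34 (−1.38 to −1.31) in cells labelled cKO, from 2813 to 1110 CPM. Cd36 rose from 15.3 to 47.4 CPM in WT (1.62, 1.32 to 1.94) and from 16 to 38.8 CPM in cKO (1.27, 1.01 to 1.55). Both are past the limit with either label, but at clustering resolution 0.4 Cd36 in WT had 0.99, under it. Plin2 went from 183 to 343 CPM in WT (0.91, 0.81 to 1.01) and rose from 129 to 326 CPM in cKO (1.34, 1.24 to 1.43).

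Trem2 went from 239 to 167 CPM (−0.52) and from 311 to 174 CPM (−0.83) in the class, and Spp1 from 2238 to 4000.2 CPM (0.84) and from 2062 to 3109 CPM (0.59). Abca1 had a ratio of 0.11 (−0.03 to 0.25) in WT and 0.59 (0.49 to 0.70) in cKO. Lpl had 0.77 (0.50 to 1.04) in WT and −0.24 (−0.43 to −0.04) in cKO, and with the 4-fold hashtag margin the WT value was 0.60. The neutrophil markers of the class summed to 59.9 and 216 CPM in WT and 42.3 and 163 CPM in cKO, and the fibroblast markers were at most 4.17 CPM.

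Between the labels 0 members were higher and 0 lower past the limit in macrophage-like cells of control tumor (1.67% and 0.55% of all genes) and of IR tumor (0.136% and 0.0954%). The largest ratios of cKO to WT were Lpl in control, 0.94 (0.73 to 1.17), and Fabp5 and Apoe after IR, 0.65 (0.57 to 0.74) and 0.60 (0.55 to 0.66). The share of cluster 11 in the class differed between the labels, with 345 of 1110 control cells labelled cKO and 164 of 983 labelled WT.

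Apoe was followed inside single clusters, since its level differed so much between them. In cluster 3 Apoe fell from 1026 to 254 CPM in cells labelled WT (−2.02, −2.11 to −1.93) and from 1112 to 273 CPM in cells labelled cKO (−2.03, −2.10 to −1.95). In cluster 5 it fell from 1212 to 327 CPM and from 1031 to 299.9 CPM. In cluster 6 it went from 846 to 501 CPM (−0.76) in WT and fell from 1364 to 616 CPM (−1.15) in cKO. Cluster 8, cells of low depth with mitochondrial transcripts among their leading genes, had 2047 and 983 CPM in WT and 1410.4 and 507 CPM in cKO.

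Cluster 11 was the exception. Its Apoe level was 6789 CPM in control and 5956 CPM after IR in cells labelled WT (−0.19, −0.26 to −0.12), and 6461 and 6804 CPM in cells labelled cKO (0.07, 0.04 to 0.11). Its share of cells went from 6.55% to 1.91% of cells labelled WT and from 16.2% to 4.13% of those labelled cKO. Cluster 11 held 42.8% of all Apoe UMIs of control cells labelled WT and 22.5% after IR, and 60% and 44.3% of those labelled cKO. In the same cluster Plin2 rose by 1.24 and 1.78 on the log2 scale, Abca1 had ratios of 0.67 and 1.37, Spp1 0.98 and 1.18, and Fabp5 0.14 and 1.36, in WT and cKO.

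**Figure D4:**
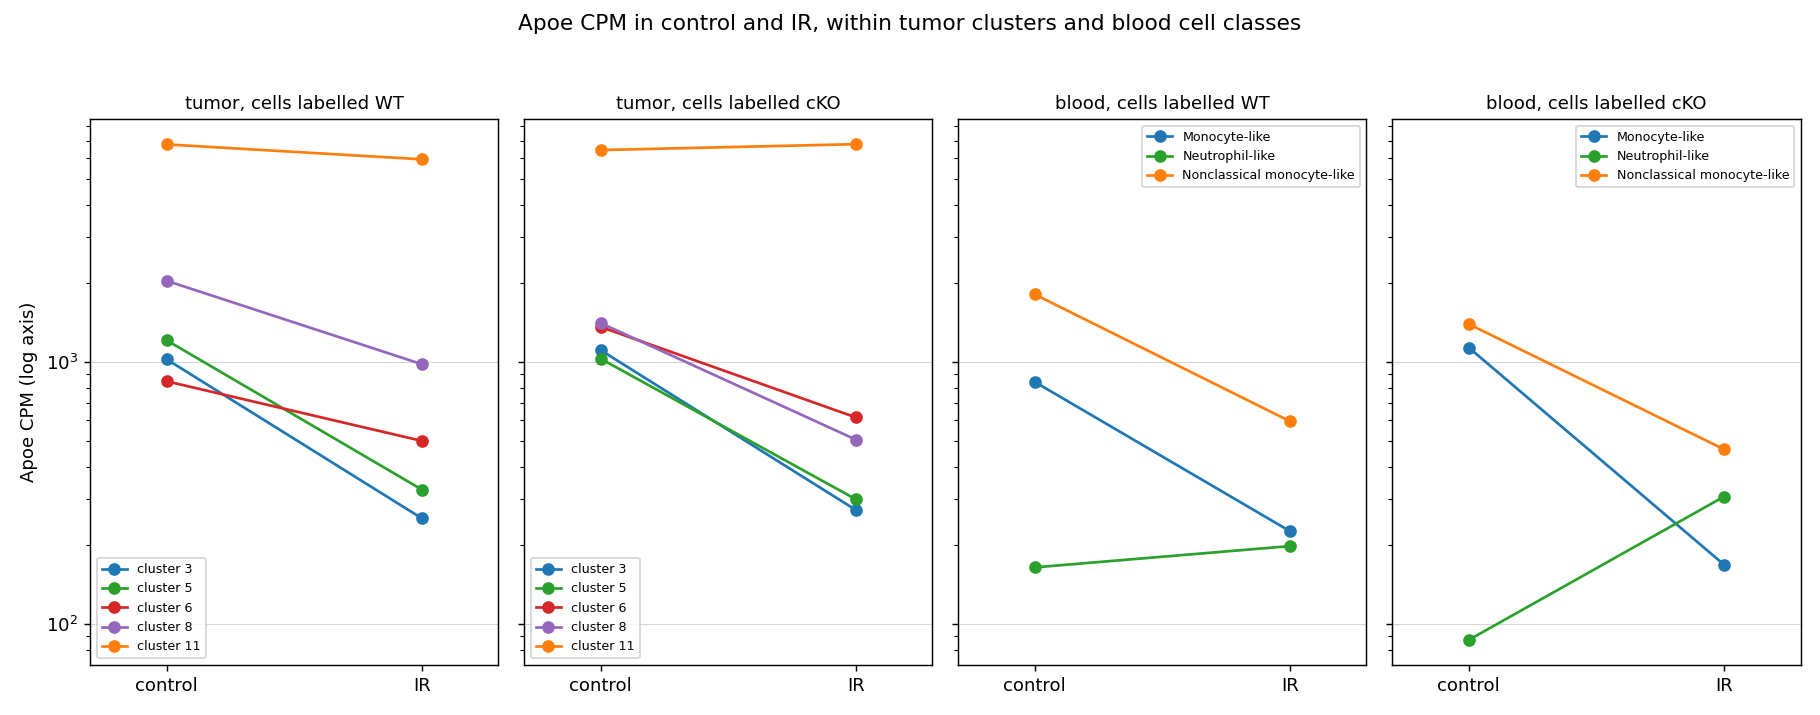
Apoe level (CPM, log axis) from control to IR inside tumor clusters 3, 5, 6, 8 and 11 and inside 3 blood cell classes, for cells labelled WT and cKO. Intervals are not drawn. Clusters 3 and 5 drop to about 254 to 327 CPM, cluster 11 stays between 5956 and 6804 CPM, and blood monocyte-like cells drop while blood neutrophil-like cells do not.

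Holding the mix of clusters at the control mix, a calculation chosen after seeing the data, used the clusters with at least 50 cells in both groups. These were 8 clusters with 93.1% of control and 70.6% of IR UMIs in WT, and 7 clusters with 57.8% and 66.9% in cKO. The ratios over all cells also cover the clusters left out here, so they differ in clusters as well as in mix. At the control mix the Apoe log2 ratio was −0.80 in WT and −0.30 in cKO, smaller than over all cells. For Plin2 it was 0.48 and 1.11, for Abca1 0.64 and 1.15, for Cd36 0.74 and 0.55, and for Spp1 0.81 and 0.55. For Trem2 it was −0.16 and −0.44. Cluster 4, monocyte-like cells led by interferon-induced genes such as Rsad2 and Ifit1, grew from 1.80% to 23.8% of cells labelled WT and from 0.562% to 22.1% of those labelled cKO and is not in that calculation. After IR it held 27.9% of the Apoe and 31.9% of the Plin2 UMIs of cells labelled WT.

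**Figure D5:**
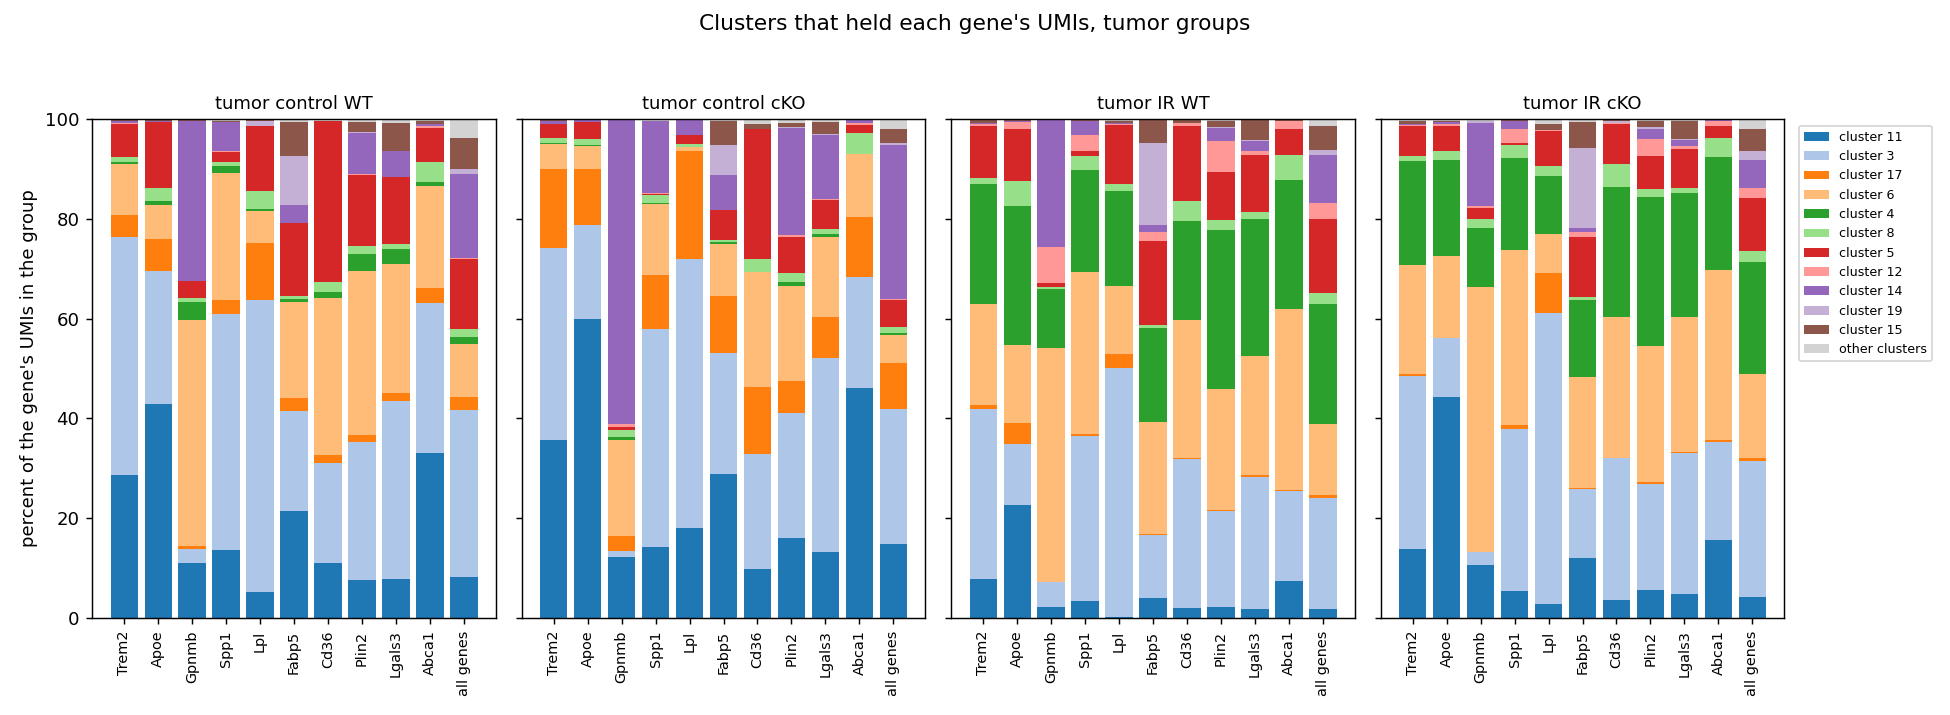
Percent of each gene's UMIs that came from each cluster in the 4 tumor groups, as stacked bars that add to 100. Cluster 11 gives 60% of the Apoe UMIs of control cells labelled cKO, and the fibroblast-like cluster 14 gives 61.2% of their Gpnmb UMIs against 16.6% after IR.

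Within cluster 6 Abca1 rose from 159 to 321 CPM in WT (1.01, 0.83 to 1.19), and in cKO went from 176 to 336 CPM (0.93, 0.73 to 1.14). Cd36 rose in cluster 3 by 1.97 and 1.41 in WT and cKO, while in cluster 6 its intervals included no difference and in cluster 5 it was 47.8 and 37.4 CPM in WT and fell from 85.4 to 29.5 CPM in cKO. Cd36 therefore did not move the same way in every cluster. Plin2 rose in cluster 3 of cKO (1.21, 1.10 to 1.33) and had 0.89 (0.78 to 1.0) in WT, against −0.07 and 0.37 in cluster 6.

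The blood groups ask whether the set differs in circulating cells after local IR. Control and IR blood came from different libraries, so treatment and library cannot be told apart here either. In WT 0 members were higher and 1, Apoe, was lower past the limit, against 0.338% and 0.912% of all genes. In cKO 2 were higher, Spp1 and Lpl, and 2 lower, Apoe and Cd36, against 0.431% and 0.979%. Between labels, 0 were higher and 1, Spp1, was lower in control blood (0.665% and 1.54%), and 0 were higher and 1, Cd36, was lower after IR (0.156% and 0.519%). Spp1 was at most 6.35 CPM in blood, and the barcodes below the cell limit had 17.8 CPM in the control and 7.18 CPM in the IR library, above the level in cells.

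Apoe in all blood cells fell from 615 to 245 CPM in WT (−1.33, −1.37 to −1.28) and from 724 to 238 CPM in cKO (−1.60, −1.65 to −1.55). As means of per-cell CPM over all blood cells the Apoe ratios were −0.84 and −0.69, under the limit. In monocyte-like cells, which carry Ly6c2, Ccr2 and F13a1, it fell from 841 to 227 CPM in WT (−1.89, −1.96 to −1.82), or 3.71-fold, and from 1138 to 169 CPM in cKO (−2.75, −2.83 to −2.68), or 6.73-fold. In nonclassical monocyte-like cells, with Ace, Ear2 and Treml4, it fell from 1816 to 596 CPM and from 1399 to 465 CPM. Neutrophil-like cells differed, with Apoe at 165 and 199 CPM in WT (0.27) and a rise from 87.2 to 307 CPM in cKO (1.81). The Apoe level in barcodes below the cell limit also fell between the blood libraries, from 643 to 273 CPM, and its part in the results was not tested.

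The fraction of blood cells with an Apoe UMI moved the same way. At 1000 UMIs a cell, 33.9% of monocyte-like cells labelled WT had one in control and 15% after IR, and 41.7% and 10.5% of those labelled cKO, while blood NK cell-like cells had at most 1.85%, with 0 of 105 in IR cells labelled WT, which allows a share of up to 3.45%. Without thinning the shares were 66.4% and 40.7% in WT and 72.8% and 35.4% in cKO, at median depths of 10003.5 to 12907 UMIs in monocyte-like and 3138.5 to 3502 UMIs in thinned NK cell-like cells. Among neutrophil-like cells 9.81% and 10.9% of WT and 6.09% and 13.5% of cKO had one.

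Cd36 in blood came from nonclassical monocyte-like cells, at 87 and 88.4 CPM in control and IR cells labelled WT and 96.1 and 49.8 CPM in those labelled cKO, against at most 2.63 CPM in monocyte-like cells. The nonclassical class went from 397 to 132 cells labelled cKO and from 278 to 186 labelled WT. Lpl in monocyte-like cells went from 29.7 to 45 CPM in WT (0.60) and rose from 23 to 48.3 CPM in cKO (1.07). Plin2 had ratios of 0.53 and 0.18 and Trem2 −0.02 and 0.24 there.

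Tumor and blood monocyte-like cells were both numerous enough to compare after IR, but they came from different clusters. In tumor, cluster 4 held 738 of 743 such cells labelled WT and 831 of 838 labelled cKO. In blood nearly all came from cluster 2 and the smaller cluster 20, led by Ccnb2. Spp1 was at 2282 CPM in tumor and 6.80 CPM in blood for WT (8.36, 8.05 to 8.75), and Abca1 at 136 and 0.886 CPM (7.06, 6.33 to 8.40). Lpl went the other way, at 16.7 CPM in tumor and 45 CPM in blood for WT (−1.42) and 10.9 and 48.3 CPM for cKO (−2.14). Trem2 differed little, at 96.3 and 76 CPM for WT (0.34, 0.17 to 0.51) and 105 and 98.3 CPM for cKO (0.10, −0.05 to 0.25).

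Related gene lists give the surroundings of the set in tumor after IR. Of 8 cholesterol synthesis genes, which cells raise when sterol is short, all 8 were below control with either label: 1 fell past the limit in WT and 6 in cKO, with medians of −0.78 and −1.68, where 3.3% and 16.8% of all genes fell. In macrophage-like cells 5 of the 8 fell with either label (medians −1.07 and −1.37), where 1.5% and 4.8% of all genes fell, including Idi1 at −1.42 in WT and Hmgcs1 at −1.76 in cKO. Of 7 genes of the sterol sensor LXR and cholesterol efflux, 0 passed the limit in WT and 2 rose in cKO, among them the exporter Abcg1 at 1.86 (0.80 in WT), where 2.61% and 5.14% of all genes rose. Both Abcg1 and Abca1 were thus higher after IR over all kept tumor cells. In macrophage-like cells labelled WT the Abca1 ratio was 0.11 (−0.03 to 0.25), which includes no difference, and in those labelled cKO it was 0.59 (0.49 to 0.70).

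For the remaining lists the same shares of all genes apply, 2.61% risen and 3.3% fallen in WT and 5.14% and 16.8% in cKO, so that 1 fallen gene of a short list in cKO is near the share of all genes. Of 9 lipid droplet and fatty acid genes counted, 2 rose in WT and 4 in cKO, and 0 fell, led by the lipase inhibitor G0s2 at 4.40 and 3.27, which is also a leading gene of cluster 12. Inside macrophage-like cells G0s2 was at 4.48 and 3.74. Of 6 TREM2 signaling genes 0 passed in WT and 1, Vav3, rose in cKO (1.07). Of 9 lysosomal lipid breakdown genes 0 passed in WT and 1, Npc2, rose in cKO (1.22), and of 7 uptake receptor genes 0 rose and 1, Vldlr, fell with either label (−1.11 and −2.03). Of the PPAR list 3 were counted in WT, with 0 past the limit, and 4 in cKO, where 1, Angptl4, fell (−1.23).

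Of 9 other reported markers of lipid-associated macrophages 1 rose and 1 fell in WT, Csf1 (1.06) and the growth factor gene Igf1 (−2.13), and in cKO 1 rose, Mmp12 (1.07), and 2 fell, Igf1 among them (−3.32), where 16.8% of all genes fell. In macrophage-like cells 2 of 9 fell with either label and 0 rose, where 1.5% of all genes fell in WT and 4.8% in cKO. The related lists were chosen with earlier results of these data known, and their counts are descriptions.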

How the data were processed

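Raw UMI counts per gene and barcode, with counts of 2 hashtag antibodies (B0301 and B0302), were used as deposited in 4 matrices. Per the file headers the authors made them with Cell Ranger 4, while the submitters' processing notes name Cell Ranger 6.0.1 and Seurat 4.0.6 and the build mm10. No deposited cell calls or cell types were used here. A barcode was kept with at least 500 UMIs, 200 genes and at most 25% mitochondrial UMIs when it passed an order-of-magnitude limit or a test against the profile of empty barcodes. Cells needed 20 hashtag UMIs and were labelled WT where B0301 was at least B0302, and cKO where B0302 was at least 4 times B0301. The WT rule is the looser one, and 994 of the 2504 control tumor cells labelled WT met a 4-fold margin. Within each library the highest 6% of Scrublet doublet scores were removed.

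Cells were clustered in Seurat 5.3.0 (R 4.3.3) on 1989 variable genes, without the members, Ythdf2, Lyz1 and Lyz2, with 40 components at resolution 0.8. A cluster was named when at least 3 markers of a class were in 25% of its cells and raised 2-fold, after 5 CPM was added. Counts were summed by group, class and cluster in Python 3.11.15 (numpy 2.4.6, scipy 1.17.1, pandas 2.3.3, scanpy 1.11.5). With 1 pooled sample per group no test was run, and intervals are exact Poisson, conditional binomial or Clopper-Pearson intervals. Genes needed 100 UMIs in the 2 groups together, and the functions were tested on simulated data. TMM factors came from edgeR 4.0.16 as an alternative only. Gene positions are from GENCODE on the mm10 build and promoters from RefSeq. All 10 members were named with their values, and of each related list the genes with the highest and lowest ratio could be named. Members, lists and markers were chosen with earlier results of these data known. Alternatives were a margin of 4 for both labels, a hashtag minimum of 100, an order-of-magnitude limit alone, 10% mitochondrial UMIs, no Scrublet removal, leaving out barcodes tagged in both tumor matrices, reading both treatments from 1 tumor matrix, means of per-cell CPM, a minimum of 20 UMIs and other clusterings.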

Additional observations from a re-analysis of the deposited data

Results flagged for a closer look

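Some pairs of comparisons gave a gene opposite signs, each with a counting interval clear of 0, while neither side passed 2-fold. With 1 pooled sample per group, none of these differences was tested. Gpnmb had a log2 ratio of IR to control of −0.43 (−0.68 to −0.18) in tumor cells labelled WT and 0.44 (0.17 to 0.72) in those labelled cKO. Fibroblast-like cells held 61.2% of the Gpnmb UMIs of control cells labelled cKO and 16.6% after IR, and without fibroblast-like cells the ratios were −0.41 in WT and 1.09 in cKO.

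Lpl had a log2 ratio of IR to control of 0.43 (0.21 to 0.65) in tumor cells labelled WT and −0.48 (−0.65 to −0.31) in those labelled cKO. Inside macrophage-like cells Lpl had 0.77 (0.50 to 1.04) and −0.24 (−0.43 to −0.04). The WT value over all tumor cells was −0.09 when a 4-fold hashtag margin was asked of both labels.

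Lgals3 had a log2 ratio of cKO to WT of −0.27 (−0.29 to −0.26) in control tumor and 0.13 (0.12 to 0.14) in IR tumor. Fabp5 in macrophage-like cells had a log2 ratio of IR to control of −0.16 (−0.25 to −0.06) in WT and 0.13 (0.07 to 0.20) in cKO, but the WT sign turned in 4 of 14 alternatives, up to 0.19 as a mean of per-cell CPM.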

How the results depend on the processing

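Over 160 results for single genes, 138 kept their sign in every alternative run and 22 changed it in at least 1. Apoe stayed past 2-fold after IR in tumor in all 12 alternatives with either label, from −1.86 to −1.29 on the log2 scale in WT and from −1.79 to −1.13 in cKO. Counts of members past 2-fold moved as follows, and the cause was not tested. The shares of all genes were computed for the reported setting only, so the counts under alternatives have no background. Under the mean of per-cell CPM the counts were 2 for IR against control in tumor cells labelled cKO (4 as reported), 0 for cKO against WT in control tumor (1), 0 for IR in blood labelled WT (1), where Apoe came to −0.84, 2 for IR in blood labelled cKO (4), where Apoe came to −0.69 and Lpl to 0.91, 0 for cKO against WT in IR blood (1), and 1 for macrophage-like cKO against WT in control tumor (0). For cKO against WT in control tumor the count was also 0 at a hashtag minimum of 100 and without Scrublet removal, and 2 without fibroblast-like cells. A hashtag margin of 4 for both labels gave 2 for cKO against WT in control blood (1) and 0 in IR blood (1). In macrophage-like cells clustering at resolution 0.4 gave 1 for IR in WT (2), where Cd36 came to 0.99, 5 for IR in cKO (3) and 2 for cKO against WT in control tumor (0). For this last comparison resolution 1.2, keeping the member genes for clustering and leaving out the cycling cluster 17 each gave 1. The counts of members higher in tumor than in blood ran from 7 to 10 in control cells labelled WT (8), from 4 to 9 in control cells labelled cKO (6), from 8 to 9 after IR in WT (8) and from 8 to 9 after IR in cKO (8), with the highest under the mean of per-cell CPM, where Cd36 came to 2.31 and 1.38 in control, Lpl to 1.34 in control WT, and Plin2 and Lgals3 to 1.73 and 1.47 in control cKO. The settings without fibroblast-like cells and without cluster 17 were chosen after seeing the data.

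TMM factors moved the log2 ratios of IR to control over all kept tumor cells by 0.15 in WT and 0.21 in cKO. Removal of doublets was not varied for macrophage-like cells. No paired analysis was possible because each group is 1 pooled sample and the labels give no replicate numbers. Values of genes with few UMIs, such as Gpnmb in blood and in macrophage-like cells, are limited by depth, and differences between mice cannot be seen in pooled samples.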
